A study of Mus musculus with 2 samples.

Results

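Transcripts of ribosomal protein genes were read on the 2 whole-transcript arrays of i-OSKM-ESC. This mouse embryonic stem cell line of strain 129 background was engineered from KH2 cells so that doxycycline induces transgenes for Oct4, Klf4, c-Myc and a Sox2 that carries an epitope tag. One array held RNA of cells given 4 µg/mL doxycycline for 24 hours (labelled +Dox). The other held RNA of cells refed without the drug for the same time (labelled -Dox). Both cultures carried the 4 inducible transgenes and grew on gelatin-coated plastic. Each condition has 1 array, so no difference below has a replicate error, a p-value or a replicate check, and precision is limited by the array number. All values come from 1 engineered line, and no doxycycline-treated parental culture was analysed here, so effects of the drug and of the factors cannot be told apart.

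The genes were chosen by symbol: Rpl or Rps followed by a number for the cytosolic ribosome, Mrpl or Mrps followed by a number for the mitochondrial ribosome, and Rplp0 to Rplp2. Suffix letters of ribosomal protein names were allowed, while pseudogenes with a -ps suffix, the Rps6k kinases and binding proteins were left out. Rps3a1, whose suffix was not covered, and ribosomal proteins with other names also fell outside the rule. Of 19938 genes measured by probesets assigned to 1 gene alone, 136 matched, 59 cytosolic and 77 mitochondrial. The cytosolic set held 38 large-subunit and 21 small-subunit genes by name, and the mitochondrial set held 48 and 29. A further 17 cytosolic genes and 1 mitochondrial gene were read only by probesets shared with other genes. Another 10 matching symbols of the mouse gene table were on no probeset naming exactly 1 matching gene. Among them was Rps27a, which encodes a ubiquitin fusion protein. The 1 probeset naming more than 1 matching gene was not counted for any of them. Rps4l is listed in the gene table as a transcribed pseudogene, and the other measured members as protein-coding.

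Cytosolic ribosomes are built in the nucleolus from ribosomal RNA and about equal amounts of each protein, and they translate nearly all cellular messages. Mitochondrial ribosomes are assembled inside the organelle from nuclear-encoded proteins and translate the few membrane proteins of the respiratory chain that mitochondrial DNA encodes. Many cytosolic ribosomal protein transcripts begin with a terminal oligopyrimidine (TOP) tract, through which mTOR signalling controls their translation, and Myc is a known activator of ribosome production.

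Levels are log2 RMA values, and a difference is the value of the array labelled +Dox minus that of the array labelled -Dox. A low-value filter kept a member if at least 1 array read it at or above 6.48, the table's median, and 133 of 136 members passed. Rpl39l, Rpl3l and Mrps36 did not. No member differed at least 2-fold, where 1.69% of the 11191 genes passing the filter did (0.92% higher and 0.768% lower in the array labelled +Dox). A second threshold of 1.2-fold was used to describe smaller differences. All counts past it are of members passing the filter.

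The array labels could not be settled from the induced genes. Sox2 was lower in the array labelled +Dox (10.88 against 11.89 in the array labelled -Dox), while Pou5f1 (12.46 against 12.05), Klf4 (9.34 against 8.91) and Myc (10.42 against 10.07) were higher, and the sources used here do not say whether their probesets read the transgenes. Directions therefore rest on the labels throughout. The embryonic stem cell markers Pou5f1, Nanog, Sox2, Zfp42, Esrrb, Tdgf1, Dppa5a, Fgf4, Utf1 and Lin28a all passed the filter, and 7 of these 10 were lower in the array labelled +Dox. Of 11 fibroblast and feeder cell markers, 8 were higher in the array labelled +Dox. Their summed linear signal had a log2 value of 10.18 in the array labelled +Dox and 9.90 in the array labelled -Dox. Dcn, Lum, Postn and S100a4 lay below the filter. Of the 7 passing it, 5 were at least 1.2-fold higher (Col1a1, Col1a2, Col5a1, Fbln2 and Thy1) and 0 as much lower. These 5 are 71.4%, where 13.5% of all genes passing the filter were higher by that much. Of 8 trophoblast markers, 4 were higher, among them Krt8 (11.02 in the array labelled +Dox, 9.27 in the array labelled -Dox) and Krt18 (7.93 against 7.85). The other 4 were lower, among them Tfap2c (7.35 against 8.18) and Eomes (6.28 against 6.52). Cdx2, Elf5 and Gata3 lay below the filter. The summed trophoblast signal was 11.46 in the array labelled +Dox and 10.53 in the array labelled -Dox, and Krt8 was the brightest of these markers on both. Of 6 neural markers, 3 were higher, among them Map2 (8.04 against 6.71) and Tubb3 (8.94 against 7.67). The other 3 were lower, among them Neurod1 (7.20 against 8.28) and Olig2 (6.83 against 7.61). The summed neural signal was 10.39 in the array labelled +Dox and 10.19 in the array labelled -Dox. Of 9 endoderm markers, 5 were higher, with sums of 9.91 and 9.92. The part of these markers in the ribosomal protein differences was not tested. In bulk RNA, fewer cells of a type and less RNA per cell cannot be told apart.

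Both sets lay close to 0. The cytosolic set had a median log2 difference of -0.025 over 59 genes, with 40 values below 0 and 19 above. The mitochondrial set had a median of -0.050 over 77 genes, with 52 below 0 and 25 above. The median of all 19938 genes was 0.0083, with 48.3% below 0. Among genes passing the filter, the median was -0.033 and 55.5% were below 0. The cytosolic median lay 0.025 above the mitochondrial one. This difference turned to -0.028 when both columns were quantile normalized and to -0.062 when the trend of the difference on brightness was removed, so the order of the 2 sets depends on the scaling.

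The sets differed more in how widely their members were scattered. As a robust SD, the scaled median absolute deviation was 0.0987 in the cytosolic set, 0.193 in the mitochondrial set and 0.248 in genes outside the rule that passed the filter. Of the 57 cytosolic members passing the filter, 3 were at least 1.2-fold lower and 2 at least 1.2-fold higher in the array labelled +Dox. These are 5.26% and 3.51%, where 18.7% and 13.5% of all genes passing the filter were lower and higher by that much. The shares of all genes are not matched for brightness, and those of bright genes were smaller. At a mean log2 value of 11 to 12, with 17 cytosolic members, 7.61% of genes outside the rule were lower and 10.1% higher. At 12 and over, with 19 cytosolic members, 4.0% were lower and 6.0% higher. Of the 76 mitochondrial members, 14 were lower and 1 was higher, or 18.4% and 1.32%. The share of lower mitochondrial members was thus near that of all genes, while the share of higher ones was smaller. With the brightness trend removed or with quantile normalization, 9 mitochondrial members were at least 1.2-fold lower. The share of all genes under these settings is not given, so this count has no background beside it.

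**Figure D1:**
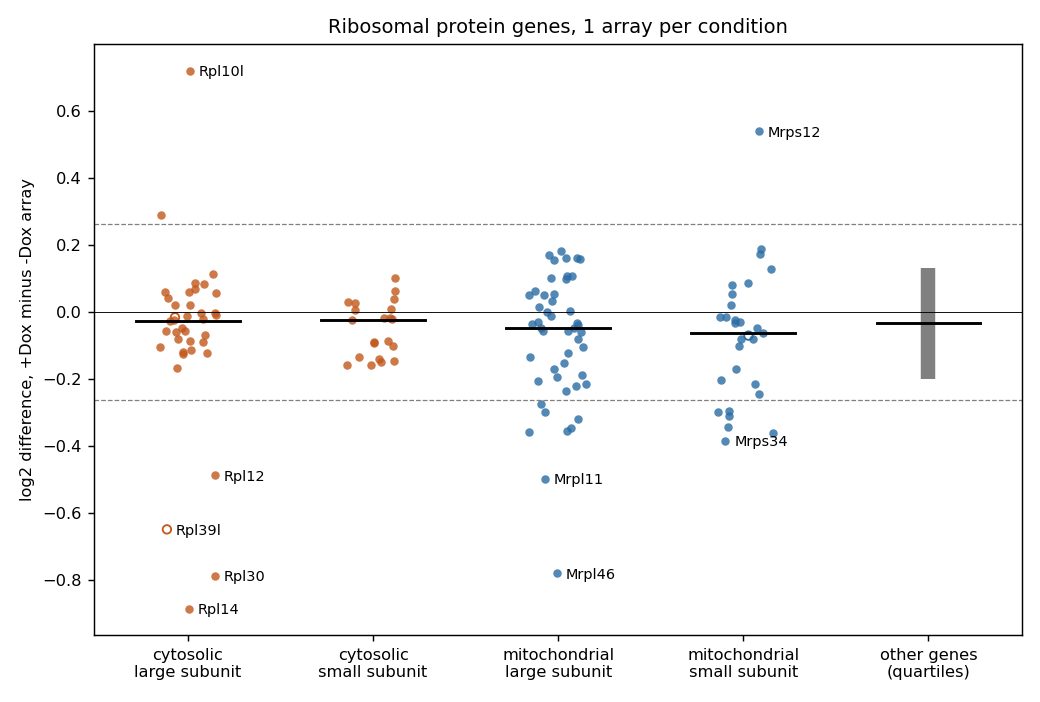
Log2 difference of each ribosomal protein gene (+Dox minus -Dox array) in the cytosolic large, cytosolic small, mitochondrial large and mitochondrial small subunit sets, with black bars at the set medians, open circles for members below the filter, dashed lines at 1.2-fold and a grey bar for the quartiles of other genes passing the filter. Medians of all 4 sets lie just below 0, and the members furthest from 0 are Rpl14 at -0.89, Rpl30 at -0.79, Mrpl46 at -0.78 and Rpl10l at 0.72.

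In the cytosolic set, members past 1.2-fold went with probeset number, while the robust SD hardly did. Single-gene probesets numbered 211 for the 59 cytosolic members and 85 for the 77 mitochondrial members. All 5 cytosolic genes past 1.2-fold had 1 probeset. The 21 cytosolic genes with 1 probeset had a median of -0.082, with 17 below 0, and 15.8% and 10.5% of those passing the filter were at least 1.2-fold lower and higher, nearer to the shares of all genes. The 38 with several probesets had a median of -0.020, with 23 below 0 and 0 past 1.2-fold. The robust SD, which takes little account of the extremes, was 0.0981 with 1 probeset and 0.0998 with several. For genes outside the rule that passed the filter it was 0.252 with 1 probeset and 0.192 with several. Probesets of a ribosomal protein gene may share probes or read processed copies of it, so they are not independent readings.

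Within bands of mean log2 value from 8 to 10, the mitochondrial set was close to other genes in spread, and from 10 upward the cytosolic set was narrower than other genes. Between 8 and 9, the robust SD was 0.195 over 32 mitochondrial members and 0.234 over 2664 other genes, with medians of -0.048 and -0.071. Between 9 and 10 it was 0.190 over 24 mitochondrial members and 0.209 over 1870 other genes, with medians of -0.059 and -0.043. Between 11 and 12 it was 0.0853 over 17 cytosolic members and 0.153 over 368 other genes, with medians of -0.057 and 0.027. At 12 and over, it was 0.0537 over 19 cytosolic members and 0.140 over 100 other genes, with medians of 0.0049 and 0.040. Cytosolic members at 12 and over thus had the median nearest to 0 of the sets and bands described here.

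**Figure D2:**
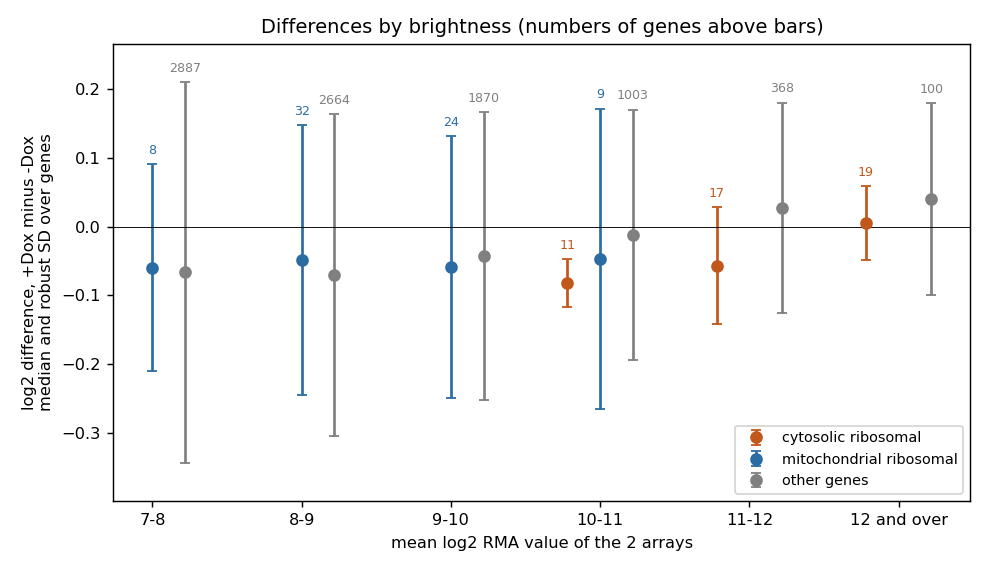
Median log2 difference (points) and robust SD over genes (bars) by band of mean log2 RMA value for cytosolic ribosomal, mitochondrial ribosomal and other genes; the number of genes stands above each bar, and sets with under 8 genes in a band are not drawn. Cytosolic bars are shorter than those of other genes from 10 upward, for example 0.0853 against 0.153 between 11 and 12, while mitochondrial bars between 8 and 10 are close to those of other genes.

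In the large cytosolic subunit, 3 genes were at least 1.2-fold lower. Rpl14, a surface protein of the large subunit, had a log2 value of 8.37 in the array labelled +Dox and 9.25 in the array labelled -Dox, a difference of -0.89 or 1.85-fold. Rpl30 had 9.28 in the array labelled +Dox and 10.07 in the array labelled -Dox, a difference of -0.79 or 1.73-fold. Rpl12, which with Rplp0 forms the base of the stalk that recruits translation factors, had 8.75 in the array labelled +Dox and 9.24 in the array labelled -Dox, a difference of -0.49 or 1.40-fold. Each of these values rests on 1 probeset. The next lowest member passing the filter was Rpl22 at -0.17, so the 3 genes stood apart from the rest of the set.

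For Rpl30 and Rpl12, other probesets gave the opposite direction. Besides its own probeset, Rpl30 is listed on 10 probesets shared with Gm12191 and Gm5481. All 10 had positive differences, between 0.021 and 0.12 with a median of 0.060, and levels of 12.23 to 12.86 in the array labelled +Dox and 12.21 to 12.79 in the array labelled -Dox. Rpl12 is listed on 8 shared probesets. The 7 shared with Gm32899 had differences between 0.10 and 0.19. The remaining one, shared with the small nucleolar RNA gene Snora65, had -0.36 (9.23 in the array labelled +Dox, 9.59 in the array labelled -Dox), the same direction as the gene's own probeset. With shared probesets counted toward the one ribosomal protein they name, Rpl30 and Rpl12 were no longer past 1.2-fold. The 2 cytosolic genes then at least 1.2-fold lower were Rpl14 and Rpl22l1, which has shared probesets alone, and Rpl10l was the 1 at least 1.2-fold higher. No shared probeset lists Rpl14, so its lower value rests on 1 probeset and has no other reading to set beside it. Which of these readings follows the mature transcript was not tested, so the lower values of Rpl30 and Rpl12 hold for their own probesets alone.

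Probesets of both kinds were found for 17 cytosolic members. Rpl29, 1.22-fold higher by its own probeset (11.52 in the array labelled +Dox, 11.23 in the array labelled -Dox), had a median of 0.029 over 35 shared probesets, which ranged from -0.11 to 0.27. Within 1.2-fold, the 2 kinds also differed in sign for Rpl26 (-0.082 by its own probeset, a median of 0.049 over shared ones), Rps13 (0.027 and -0.15) and Rpl13 (-0.059 and 0.041). Both values lay near 0, with opposite signs, for Rplp0 (-0.0033 and 0.020) and Rpl7a (-0.014 and 0.0022). Among genes whose 2 kinds had the same sign, Rpl37a had -0.11 by its own probeset and a median of -0.11 over 3 shared ones, and Rpl41 had 0.087 and 0.095. Rps2 had -0.018 over 3 probesets of its own and a median of -0.0015 over 17 shared ones. Rpl21, with 9 and 32 probesets, had 0.041 and 0.030.

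**Figure D3:**
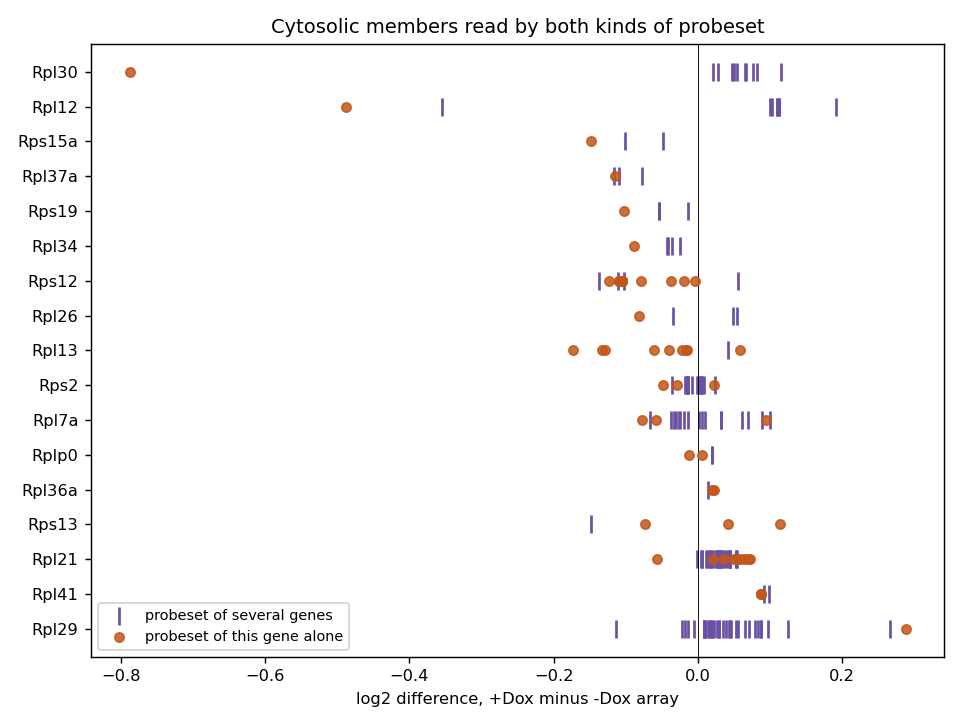
Log2 difference (+Dox minus -Dox array) of every probeset of the 17 cytosolic members that have both probesets of their own (circles) and probesets shared with other genes (purple ticks). Rpl30 and Rpl12 have their own probeset at -0.79 and -0.49, while shared probesets lie mostly above 0; for the other genes except Rpl29 all probesets of both kinds lie within 0.2 of 0.

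Among the remaining large-subunit members, the stalk proteins Rplp0, Rplp1 and Rplp2 had differences of -0.0033, -0.087 and -0.0052. Rpl5, which carries 5S ribosomal RNA and can bind the p53 regulator Mdm2, had 12.50 in the array labelled +Dox and 12.44 in the array labelled -Dox, a difference of 0.056. Its partner Rpl11 was read only by 6 shared probesets, all positive, with a median of 0.055. Rpl38, known in mice for a role in translating Hox messages, had 11.60 in the array labelled +Dox and 11.49 in the array labelled -Dox, a difference of 0.11. Rpl41, the shortest ribosomal protein, had 0.087. These values lie within 1.2-fold. Of 8 genes for proteins at the nascent chain exit, 4 had probesets of their own. By these, Rpl23a (-0.12), Rpl26 (-0.082), Rpl19 (-0.048) and Rpl4 (-0.025) were all slightly below 0. The other 4 were read only by shared probesets and had medians above 0: Rpl31 0.16, Rpl35 0.071, Rpl17 0.063 and Rpl39 0.030. Shared probesets of Rpl26 also had a median above 0 (0.049).

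In the small cytosolic subunit, none of the 21 members passed 1.2-fold. The lowest were Rps4x, the X-linked form of this protein, at -0.16 (11.92 in the array labelled +Dox, 12.08 in the array labelled -Dox), Rps14 at -0.16, Rps21 at -0.15 and Rps15a at -0.15. The highest were Rps15 at 0.10, Rps10 at 0.063, Rps6 at 0.039 and Rps9 at 0.028. Rps6, the substrate of the S6 kinases, had 13.44 in the array labelled +Dox and 13.41 in the array labelled -Dox, and its difference was -0.034 with the brightness trend removed. All 5 probesets of Rps4x were below 0, between -0.20 and -0.13, and all 6 of Rps25 (-0.14) were below 0. Of 16 mouse genes whose human counterparts are mutated in Diamond-Blackfan anaemia, 8 had probesets of their own. These 8 had a median of -0.075 and a range from -0.10 for Rps19 to 0.063 for Rps10. Those read only by shared probesets lay on both sides of 0, from -0.12 for Rpl35a to 0.16 for Rpl31.

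Paralogs of cytosolic ribosomal proteins gave the highest value of the set. Rpl10l, an autosomal retrogene copy of X-linked Rpl10 known from the testis, had 8.04 in the array labelled +Dox and 7.32 in the array labelled -Dox, a difference of 0.72 or 1.65-fold. Rpl10 itself had 13.20 in the array labelled +Dox and 13.11 in the array labelled -Dox, a difference of 0.084, with its 6 probesets between 0.079 and 0.093. The pair thus differed by 0.64, on 1 probeset for Rpl10l. Rpl39l, a paralog of Rpl39 also known from the testis, had -0.65 but lay below the filter (4.16 in the array labelled +Dox, 4.81 in the array labelled -Dox) and had -0.27 after 32 was added to the linear signals. Rpl39 was read only by 2 shared probesets, at 0.030 each.

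Other paralogs lay nearer to their partners. Rpl7l1 had -0.12 against 0.019 for Rpl7. Rps4l had -0.14 against -0.16 for Rps4x, and cross-hybridisation between these close copies was not tested. Rps27l, a p53-responsive paralog of Rps27, had -0.024, and Rps27 had a median of -0.014 over 2 shared probesets. Rpl22l1, which can replace Rpl22 in the ribosome, had a median of -0.29 over 2 shared probesets, with levels of 6.63 and 6.84 in the array labelled +Dox and 6.999 and 7.04 in the array labelled -Dox. Rpl22 had -0.17. The muscle form Rpl3l (-0.017) lay below the filter, and Rpl3 had a median of -0.11 over 7 shared probesets, all below 0. Rpl36al had a median of 0.043 over 2 shared probesets against 0.021 for Rpl36a.

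The 18 genes read only by shared probesets also lay near 0. Their median differences lay between the -0.29 of Rpl22l1 and the 0.16 of Rpl31, 10 above 0 and 8 below, with a middle value of 0.017. All 9 probesets of Rpl31 were positive (0.027 to 0.24), all 12 of Rpl35a were negative (-0.13 to -0.085) and all 8 of Rpl15 were negative (-0.11 to -0.084). Rps24 and Rps26 had medians of 0.11 each. Without the shared gene's own level these values cannot be assigned to the ribosomal protein alone.

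**Figure D4:**
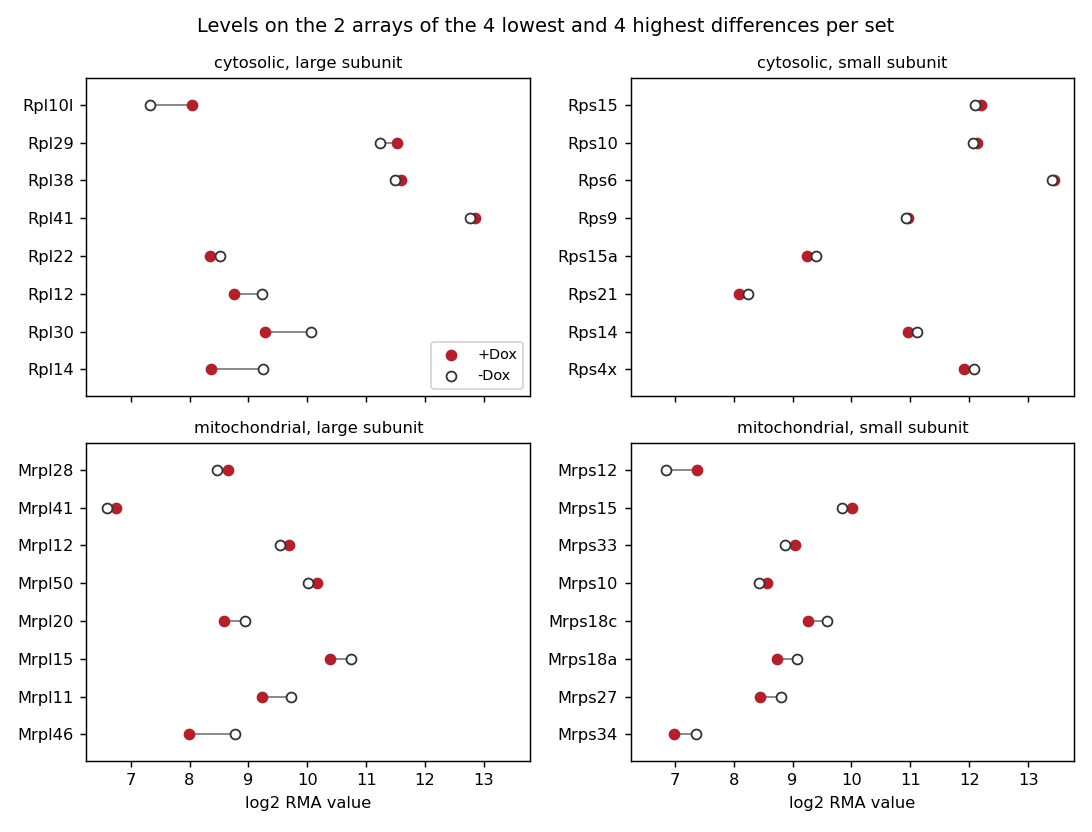
Log2 RMA value on the array labelled +Dox (filled) and the array labelled -Dox (open) of the 4 lowest and 4 highest differences among members passing the filter in each subunit set. The points nearly coincide in the small cytosolic subunit, while Rpl14, Rpl30, Mrpl46 and Mrpl11 are lower and Rpl10l and Mrps12 higher on the array labelled +Dox.

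In the large mitochondrial subunit, 8 of 48 members (16.7%) were at least 1.2-fold lower and 0 at least 1.2-fold higher in the array labelled +Dox, where 18.7% and 13.5% of all genes passing the filter were. The share of lower members was thus near the background. Mrpl46 was the lowest, with 7.997 in the array labelled +Dox and 8.78 in the array labelled -Dox, a difference of -0.78 or 1.72-fold. Mrpl11, part of the base of the mitochondrial stalk, had 9.22 in the array labelled +Dox and 9.72 in the array labelled -Dox, a difference of -0.50 or 1.41-fold. Mrpl15 had 10.39 and 10.75 in the arrays labelled +Dox and -Dox (-0.36), and Mrpl20 had 8.59 and 8.95 (-0.36). The other 4 past 1.2-fold were Mrpl42 (-0.35), Mrpl22 (-0.32), Mrpl51 (-0.30) and Mrpl38 (-0.27), named after their values were seen. Except for Mrpl51, with probesets at -0.46 and -0.14, each had 1 probeset.

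The highest large-subunit members stayed within 1.2-fold. Mrpl28 had 8.65 in the array labelled +Dox and 8.46 in the array labelled -Dox, a difference of 0.18. Mrpl41 had 0.17 as the mean of probesets at -0.015 and 0.35, Mrpl12 0.16 and Mrpl50 0.16. Mrpl12, the stalk protein that also binds mitochondrial RNA polymerase, thus lay opposite to its stalk neighbours Mrpl11 and Mrpl10 (-0.19). Proteins at the membrane-facing exit gave Mrpl23 -0.24, Mrpl24 -0.058, Mrpl44 -0.039 and Mrpl45, which anchors the ribosome to the inner membrane, 0.052.

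In the small mitochondrial subunit, 6 of 28 members passing the filter (21.4%) were at least 1.2-fold lower and 1 (3.57%) was higher, against 18.7% and 13.5% of all genes, so the lower share was again near the background. Mrps12, a protein of the decoding centre, was the higher one, with 7.38 in the array labelled +Dox and 6.85 in the array labelled -Dox, a difference of 0.54 or 1.45-fold. With a stricter minimum log2 value of 8 it was not counted. The lower ones were Mrps34 (6.98 in the array labelled +Dox, 7.36 in the array labelled -Dox, -0.38), Mrps27 (8.45 and 8.81, -0.36), Mrps18a (8.73 and 9.08, -0.34) and Mrps18c (9.27 and 9.58, -0.31). Mrps35 (-0.30) and Mrps24 (-0.29), named after their values were seen, were also past 1.2-fold. Mrps18b, the third form of this protein, had -0.17, so all 3 forms were below 0. In human mitochondria the Mrps18a and Mrps30 proteins sit in the large subunit despite their names, and Mrps30 had -0.081 here. Mrps15 (0.19), Mrps33 (0.17) and Mrps10 (0.13) were the next highest after Mrps12.

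Mitochondrial members were also divided by number, since Mrpl1 to Mrpl36 and Mrps1 to Mrps21 largely have bacterial counterparts and higher numbers are specific to mitochondria. The 33 mitochondria-specific members had a median of -0.060, with 25 below 0, and 8 of the 32 passing the filter were at least 1.2-fold lower. The 44 members with bacterial counterparts had a median of -0.043, with 27 below 0, and 6 were at least 1.2-fold lower and 1 higher. Of all genes passing the filter, 18.7% were lower by that much, against 13.6% of the members with bacterial counterparts and a larger share of the mitochondria-specific ones, and the difference between the 2 groups was not tested. Chchd1, a small-subunit protein outside the naming rule and chosen after its value was seen, had 8.24 in the array labelled +Dox and 8.79 in the array labelled -Dox, a difference of -0.56. Other ribosomal proteins outside the naming rule were nearer to 0, with Rpsa at -0.16, Fau at -0.14, Gadd45gip1 at -0.12, Ptcd3 at 0.0023 and Dap3 at 0.027. Rps3a1 had 10.24 on both arrays, a difference of 0.0.

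Promoter windows from RefSeq (GRCm38.p6), running from 250 bases before to 50 bases after each listed start, were found for 115 of the 136 members. The letters CTTTT or CTTTC, a feature of TOP starts, occurred on the gene's strand within 20 bases of the start in 16 of 56 cytosolic windows (28.6%), in 5 of 74 mitochondrial windows (6.76%) and in 9.42% of all 32851 windows. The sequences shown are the 30 bases centred on the start for 7 cytosolic and 3 mitochondrial members described above, with these letters in capitals. They were chosen after values and letters were seen, to show starts with and without the letters, and the shares among those shown are not those of the sets.
Rpl38 (chr11:114668565-114668594, + strand): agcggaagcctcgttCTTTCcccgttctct
Rps6 (chr4:86857353-86857382, - strand): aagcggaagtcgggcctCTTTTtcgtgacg
Rpl12 (chr2:32961697-32961726, + strand): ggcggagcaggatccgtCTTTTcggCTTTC
Rpl14 (chr9:120571502-120571531, + strand): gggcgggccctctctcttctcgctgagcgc
Rpl10l (chr12:66284387-66284416, - strand): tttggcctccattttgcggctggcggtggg
Rpl10 (chrX:74270801-74270830, + strand): gttgttacagtggaagataggccgcctata
Rps15 (chr10:80292416-80292445, + strand): cccggcagagctcgcgataactgcgcaagc
Mrpl46 (chr7:78783075-78783104, - strand): cgcgttgcctcatgggaacctggggttggc
Mrps12 (chr7:28741807-28741836, - strand): tcactaaggaggaaccccggaaggggctgg
Mrpl11 (chr19:4962291-4962320, + strand): cctagccgaacacgagggcccttcacctct
Rpl14 has a pyrimidine-rich start without the searched letters, and the windows of Rpl10, its retrogene copy Rpl10l, Rps15 and the 3 mitochondrial genes also lack them. Cytosolic genes with the letters near a start had a median difference of -0.042 (16 genes) and those without had -0.022 (31 genes). Mitochondrial genes had 0.086 with the letters (5 genes, 2 below 0) and -0.047 without (63 genes), the opposite order.

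CACGTG, the palindromic E-box that Myc-Max dimers bind, occurred in 7 of 56 cytosolic windows (12.5%), 7 of 74 mitochondrial windows (9.46%) and 7.15% of all windows. The mitochondrial windows belong to 5 genes, shown with the E-box in capitals because all 5 were lower in the array labelled +Dox.
Mrpl20 (chr4:155802833-155802862, + strand): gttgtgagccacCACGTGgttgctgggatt
Mrps18c (chr5:100798584-100798613, + strand): gcagccccgggtCACGTGacttccggcccg
Mrpl36 (chr13:73330954-73330983, + strand): cacacgtcatccCACGTGaccttacgccat
Mrpl2 (chr17:46646078-46646107, + strand): actgccgcccgtCACGTGacccgagcaacc
Mrpl37 (chr4:107067011-107067040, - strand): agcaagtttcttCACGTGtggcacttcaga
Their differences were -0.36, -0.31, -0.21, -0.15 and -0.13, with a median of -0.21, and 39 of the 63 mitochondrial genes without the letters were also below 0 (median -0.038). Of the 5 cytosolic genes with the letters, Rpl14 (-0.89), Rps19 (-0.10), Rpl34 (-0.089) and Rpl19 (-0.048) were below 0 and Rpl23 (0.058) was above. A match of letters is a description of the window and shows no binding.

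Genes that make ribosomes or work beside them also gave small differences, and Mycn was the only gene of these lists past 2-fold. Counts past 1.2-fold in these lists stand beside the 13.5% of all genes passing the filter that were higher and the 18.7% that were lower. The 40 nucleolar assembly and ribosomal RNA modification genes had a median of 0.036, with 26 above 0 and 14 below. Nob1, the nuclease that finishes small-subunit ribosomal RNA (0.35), and Las1l (0.30) were at least 1.2-fold higher (5.0% of the list), 0 were as much lower, and the lowest were Mrto4 and Bysl at -0.17 each. The 15 genes of RNA polymerase I and its factors had a median of -0.093, with 1 at least 1.2-fold lower (6.67%). The lowest were Znrd1 (-0.30) and Polr1c (-0.24) and the highest Taf1b (0.21) and Polr1e (0.16).

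Cytosolic translation factors (37 of 43 measured) had a median of 0.019, with 2 at least 1.2-fold higher (5.41%) and 0 lower. These were Eif2s2 (0.34) and Eif2s3x (0.27), subunits of the factor that brings initiator tRNA to the ribosome, and the lowest were Eif2b4 and Eif2b2 at -0.23 each. Of the 15 mitochondrial translation factors, with a median of -0.16, 2 were at least 1.2-fold lower (13.3%) and 1 was higher (6.67%). Mtrf1l (-0.32) and Slirp (-0.28), a partner of the RNA-binding protein Lrpprc, were the lowest, and the recycling factor Mrrf (0.34) and Mtif3 (0.13) the highest. The 22 mitochondrial ribosome assembly genes had a median of -0.096. Rpusd4 and Ngrn had -0.30 each, Mrm1 had 0.34 and Mtg1 0.21.

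**Figure D5:**
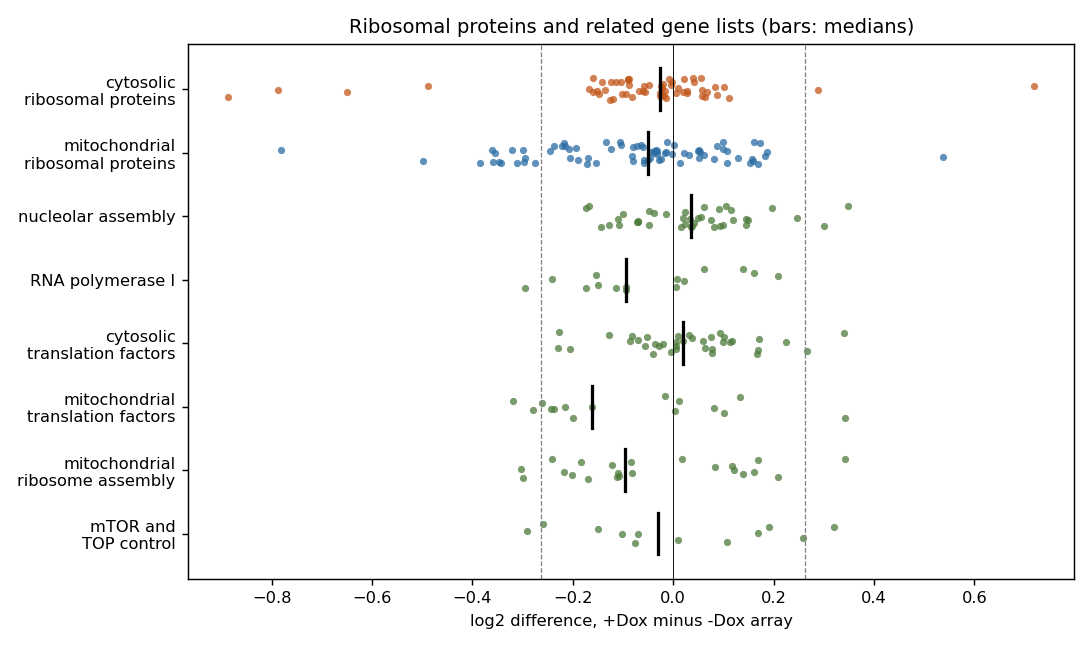
Log2 difference (+Dox minus -Dox array) of each cytosolic and mitochondrial ribosomal protein gene and of each gene in 6 related lists, with black bars at the medians and dashed lines at 1.2-fold. Medians run from -0.16 for mitochondrial translation factors to 0.036 for nucleolar assembly genes.

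Regulators of ribosomal protein translation had a median of -0.030 over 12 genes. Deptor (-0.29), an inhibitor of mTOR, and Mlst8 (-0.26) were the lowest, and the kinase gene Rps6kb2 (0.32) and Larp1 (0.26), which binds TOP messages, the highest. In the Myc network, Mycn had 8.54 in the array labelled +Dox and 9.91 in the array labelled -Dox, 2.59-fold lower, and Mxd3 had -0.38, while Mxi1 (0.41) and Myc (0.35) were the highest.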

How the data were processed

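RNA of 2 cultures, 1 per condition, was hybridised to whole-transcript arrays after labelling with biotin. The deposited log2 values (35556 probesets) were made by the authors with Affymetrix Expression Console and RMA, per the submitters' processing notes. The sources used here give no versions or build. RMA brings the arrays to a like distribution, which can hide a global shift, and no detection call was used.

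Probesets were named from the platform annotation: 21789 have 1 gene, 1621 several and 12146 none listed. A gene's value is the mean of its single-gene probesets. The rule for named genes took the 4 highest and 4 lowest differences per subunit set, stalk genes, 5S particle genes, paralogs, Rps27a, Rpl38, Rps19, Mrpl45, the 4 induced factors, and the 2 highest and 2 lowest of each related list. Genes named beyond it were chosen after their values were seen. Members and lists were chosen with earlier results of these data known. No test was possible with 1 array per condition. The summary steps were tested on simulated data. Alternatives are given in the closing section. Python 3.11.15, NumPy 2.4.6, pandas 2.3.3 and statsmodels 0.14.6 were used.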

Additional observations from a re-analysis of the deposited data

How the results depend on the processing

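11 alternatives were run on the 2 sets. The cytosolic median stayed below 0 under all 11 (-0.064 to -0.018), and 0 members of either set reached 2-fold under any of the 10 that give counts. The mitochondrial median was -0.016 with quantile normalization and -0.0018 with the brightness trend removed, and over all 11 it ran from -0.080 to -0.0018. In either of these 2 settings, 9 mitochondrial members were at least 1.2-fold lower, with no share of all genes given beside them. The cytosolic minus mitochondrial difference turned to -0.028 and -0.062 under the same 2 settings. The number of cytosolic members at least 1.2-fold higher was 1 without the members that have an l suffix, which removes Rpl10l, and 1 with shared probesets included. The number of mitochondrial members at least 1.2-fold higher was 2 with every probeset counted and 0 with a minimum log2 value of 8. Of 192 pairs of a named member and an alternative, 190 moved by no more than 0.145, the within-gene SD over probesets of all genes, and the others were Mrpl41 (-0.015 by its brightest probeset) and Rpl39l (-0.27 with the offset). That SD was 0.0441 for cytosolic members, and several of them moved by more than this. By the brightest probeset these were Rps9 (0.13), Rps14 (-0.058), Rplp1 (-0.0030), Rps4l (-0.19) and Rps15 (0.051). With the brightness trend removed they included Rpl22 (-0.091), Rps21 (-0.070), Rpl10 (0.018) and Rpl41 (0.031). The sign turned in 7 pairs. Besides Mrpl41 these were Rps6 (-0.034), Rpl36a (-0.027), Rpl7 (-0.0083) and Rplp2 (0.054) with the brightness trend removed, Rplp2 (0.041) with quantile normalization and Rplp0 (0.0057) by its brightest probeset. The medians of the related lists were not recomputed. No paired analysis was possible because each condition has 1 array. Low signals were not separated from background.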
